A study of Mus musculus with 12 samples.

Results

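The interaction of Usp5 genotype and lipopolysaccharide (LPS) asks, gene by gene, whether LPS changed RNA by a different amount in peritoneal macrophages with a myeloid knockout of Usp5 than in wild-type ones. It was taken as the log2 change at 3 h of LPS over 0 h in the knockout, minus the same change in the wild type. All 12 libraries of the series entered it, 3 in each of 4 groups. The groups are named here MKO 3 h (Usp5 knockout, 3 h of LPS), MKO 0 h (Usp5 knockout, no LPS time), WT 3 h (wild type, 3 h of LPS) and WT 0 h (wild type, no LPS time). The treatment label reads LPS for all samples, the 0 h ones included, while the design text of the series speaks of mock cells, so 0 h is taken as the unstimulated state. The labels used here name neither the Cre driver of the knockout nor the strain or age of the mice. Whether the replicates of a group are different animals is also unlabelled, and a p-value therefore describes the spread of these libraries, part of which may be technical.

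LPS is a component of the outer membrane of Gram-negative bacteria. With its co-receptor CD14 it activates Toll-like receptor 4, whose adaptors MyD88 and TRIF switch on NF-kB, the MAP kinases and interferon regulatory factors. Within hours these turn on genes for cytokines, chemokines and early transcription factors, together with inhibitors that later shut the same pathway down. Ubiquitin chains, free ones included, carry part of this signal, and Usp5 encodes a deubiquitinase that cuts free chains into single ubiquitin molecules. A negative interaction of a gene that LPS raises means that its rise was smaller in the knockout, and a positive interaction of a gene that LPS lowers means that its fall was smaller there.

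Usp5 itself was measured first, as a check of the labels. It had 27.9, 27.98 and 26.9 CPM in MKO 3 h, 28.7, 29.0004 and 31.4 in MKO 0 h, 107, 106 and 111 in WT 3 h and 101, 112 and 121 in WT 0 h. All 6 MKO libraries lay below all 6 WT libraries, and the Usp5 interaction was -0.07 (SE 0.1, adjusted p = 0.81) in edgeR's quasi-likelihood test with Benjamini-Hochberg adjustment, the test behind every adjusted p here. Levels are CPM, counts per library size after scaling by the trimmed mean of M values (TMM). Total counts per library ran from 14762709 to 20778862, and 12455 genes were tested. Replicate 3 of MKO 0 h and replicate 3 of WT 0 h stood apart from their group mates, at -29.2 and 29.7 on the third principal component (5.57% of variance), so leading counts are also given without both. Counts are given as well with replicates 1 and 2 summed in every group, since earlier results of these data named those as possible technical repeats. The slope of log2 CPM on log2 exon length, a technical property, was 0.042 to 0.086 in MKO 3 h, 0.048, 0.075 and -0.107 in MKO 0 h, -0.025 to -0.010 in WT 3 h and -0.067, -0.085 and 0.020 in WT 0 h. Across genes the interaction itself had a slope of 0.024 on log2 exon length. Of the markers of resident large peritoneal macrophages, Gata6, Timd4, Vsig4 and Cxcl13 were under 0.1 CPM in every library, and Adgre1, the F4/80 gene, made up 84.9% of that list's level. The summed level of large macrophage markers was 2378 to 2458 CPM in MKO 3 h, 2233 to 2319 in MKO 0 h, 3430 to 3490 in WT 3 h and 3449 to 3574 in WT 0 h. Without Adgre1 it was 415 to 422 CPM in MKO 3 h, 419 to 485 in MKO 0 h, 433 to 452 in WT 3 h and 399 to 526 in WT 0 h. The genotypes then overlapped at 0 h, and at 3 h MKO lay slightly below WT without overlap. Marker genes of mast cells and eosinophils summed to 44.3 to 56.8 CPM in MKO 3 h, 43.6 to 46.7 in MKO 0 h, 78.6 to 86.7 in WT 3 h and 48.9 to 56.4 in WT 0 h, with 71.8% from Ccr3. Without Ccr3 the order of the genotypes turned, at 20.5 to 26.1 CPM in MKO 3 h, 21.2 to 22.7 in MKO 0 h, 8.57 to 13.1 in WT 3 h and 8.04 to 11.1 in WT 0 h. No member of either list had a called interaction. In the other 7 marker lists Irf4, Xcr1 and Cd24a did, and the part of these markers in the results below was not tested. Some of those lists separated the genotypes, while neutrophil markers overlapped. Small peritoneal macrophage and monocyte markers summed to 1147 to 1171 CPM in MKO 3 h and 1440 to 1488 in WT 3 h. At 0 h they were at 1164 to 1289 in MKO and 1364 to 1469 in WT, but overlapped without Mrc1. B cell markers overlapped in sum, and without Cd22 were at 30.1 to 31.8 CPM in MKO 3 h and 17.7 to 22.1 in WT 3 h. At 0 h they were then 33.5 to 50.6 in MKO and 19.6 to 23.2 in WT. In bulk RNA, fewer cells of a type and less RNA per cell cannot be told apart.

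LPS changed RNA levels less in MKO than in WT macrophages, and the interaction was called in 847 of 12455 genes (6.80%) at an adjusted p under 0.05. It was negative in 549 genes (4.41%) and positive in 298 (2.39%). Of the negative genes 504 had higher fitted levels at 3 h in both genotypes, with a median log2 LPS change of 0.69 in MKO and 1.53 in WT. In the other 45 the fitted LPS change was downward in MKO and upward in WT, with medians of -0.15 and 0.45. Of the positive genes 238 had lower fitted levels at 3 h in both genotypes, with a median of -0.31 in MKO and -1.03 in WT. Another 53 had an upward change in MKO and a downward one in WT, with medians of 0.17 and -0.39. The remaining 7 positive genes went up in both genotypes and more so in MKO, and no called gene went down in both genotypes and more so in MKO. The median interaction was -0.75 over the negative genes and 0.69 over the positive ones, against -0.02 over all genes tested. For 831 of the 847 genes the 9 differences between an MKO 3 h and an MKO 0 h library did not overlap the 9 WT differences, while 12.4% of all tested genes met this. An interaction of at least 1 in size was found in 172 negative and 76 positive genes.

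LPS responses were called higher in 9.75% and lower in 6.08% of tested genes in MKO, and higher in 17.8% and lower in 14.6% in WT. The genes counted next had a called LPS response in the genotype named and a mean of at least 1 CPM. Among the 297 genes that rose at least 2-fold in MKO, the median log2 response was 1.77 in MKO and 2.63 in WT, and 270 of them changed less in MKO. Among the 75 genes that fell at least 2-fold in MKO, the medians were -1.22 in MKO and -1.74 in WT, and 57 changed less in MKO. Picked in WT instead, 558 genes rose at least 2-fold with medians of 1.04 in MKO and 1.89 in WT, and 360 genes fell with medians of -0.65 in MKO and -1.42 in WT. The interaction is also the genotype difference at 3 h minus that at 0 h, which share no library with each other. The choice of genes by sign fixes which of these is the lower, so their medians are a description. Over the 549 negative genes the median genotype difference was -0.67 at 3 h and 0.10 at 0 h. Over the 298 positive genes it was 0.65 at 3 h and -0.05 at 0 h.

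Without replicate 3 of both 0 h groups 2535 genes were called, 1698 negative and 837 positive, with 829 of the 847 among them. With replicates 1 and 2 summed 294 were called, 237 negative and 57 positive. Scaling by library size alone, which moves the interaction of all genes by 0.13, turned the split to 382 negative and 829 positive, and sizes below are relative to TMM scaling.

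**Figure D1:**
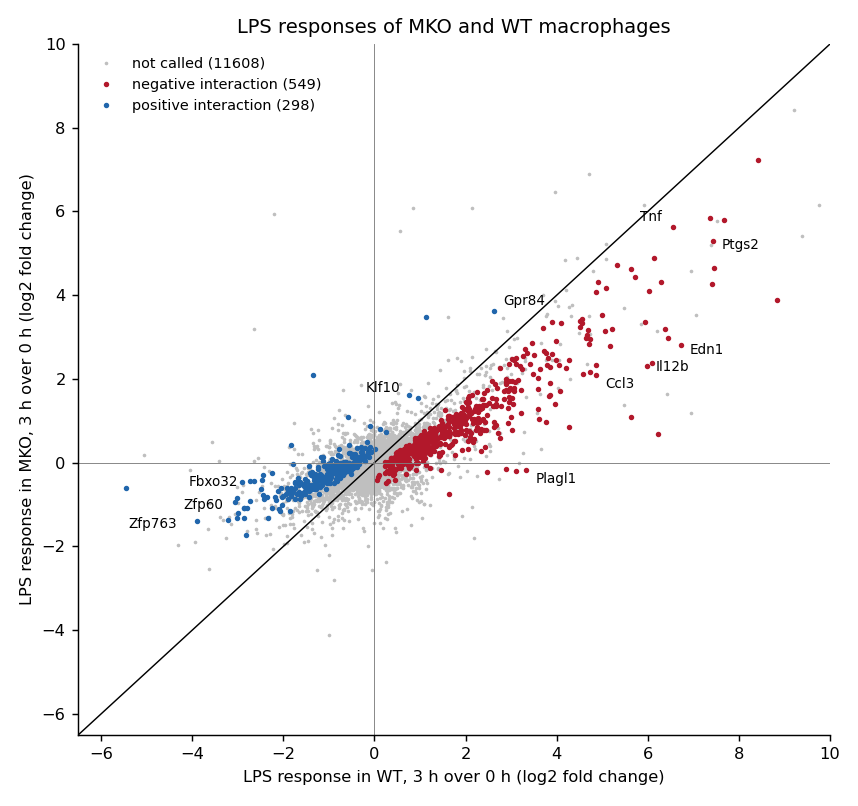
Each point is 1 of 12455 genes, with its LPS response in WT on the x axis and in MKO on the y axis, both as log2 fold change of 3 h over 0 h, and the line marks equal responses. The 549 genes with a negative interaction (red) lie below the line on the right, and most of the 298 genes with a positive one (blue) lie above it on the left. Gpr84 and Klf10 are among the 7 genes that went up in both genotypes and more so in MKO.

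Promoters are shown for 3 genes among the 15 most negative interactions and 2 among the 15 most positive, because they hold the motif letters that the groups of called genes differed in. Sequences are RefSeq promoters on GRCm38.p6, 250 bases before the gene start and 30 from it, written 5′ to 3′ on the strand of the gene. Capitals mark matches, on either strand, to the NF-kB pattern (3 G, any 5 bases, 2 C), TGANTCA (AP-1), TGACGTCA (cAMP response element, CRE), TATAAA (for the TATA box) or CCGGAAG (ETS), and positions count from the gene start.
Ppp1r15a, chr7:45526239-45526518, minus strand: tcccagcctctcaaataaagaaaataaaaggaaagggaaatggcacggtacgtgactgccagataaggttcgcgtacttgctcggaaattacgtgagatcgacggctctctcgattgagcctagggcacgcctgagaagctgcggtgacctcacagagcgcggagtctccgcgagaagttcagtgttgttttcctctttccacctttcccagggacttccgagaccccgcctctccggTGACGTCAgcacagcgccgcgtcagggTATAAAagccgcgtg
Il6, chr5:30012864-30013143, plus strand: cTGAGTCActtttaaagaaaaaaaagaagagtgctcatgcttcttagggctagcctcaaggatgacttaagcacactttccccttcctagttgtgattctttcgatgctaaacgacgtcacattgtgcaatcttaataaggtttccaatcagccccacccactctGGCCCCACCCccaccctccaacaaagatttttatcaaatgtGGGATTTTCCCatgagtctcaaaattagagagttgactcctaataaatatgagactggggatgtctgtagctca
F3, chr3:121723287-121723566, plus strand: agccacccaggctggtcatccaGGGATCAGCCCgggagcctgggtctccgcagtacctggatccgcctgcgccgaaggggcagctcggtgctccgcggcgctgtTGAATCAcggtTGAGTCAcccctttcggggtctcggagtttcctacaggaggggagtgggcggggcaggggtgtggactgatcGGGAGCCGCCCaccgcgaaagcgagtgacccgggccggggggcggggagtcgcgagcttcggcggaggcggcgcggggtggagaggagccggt
Zfp60, chr7:27731159-27731438, plus strand: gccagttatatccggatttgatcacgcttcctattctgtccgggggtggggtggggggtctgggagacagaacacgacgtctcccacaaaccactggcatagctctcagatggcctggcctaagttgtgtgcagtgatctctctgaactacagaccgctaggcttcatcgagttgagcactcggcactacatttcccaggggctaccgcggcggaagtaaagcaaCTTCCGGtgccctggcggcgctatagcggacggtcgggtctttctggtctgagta
Zfp202, chr9:40192066-40192345, plus strand: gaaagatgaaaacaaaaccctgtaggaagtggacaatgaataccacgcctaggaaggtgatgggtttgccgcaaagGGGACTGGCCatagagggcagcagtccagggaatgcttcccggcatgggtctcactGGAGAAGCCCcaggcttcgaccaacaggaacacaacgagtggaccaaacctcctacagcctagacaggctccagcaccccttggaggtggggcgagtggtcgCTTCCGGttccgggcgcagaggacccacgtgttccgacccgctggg

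Ppp1r15a held the CRE letters at -12 and the TATA letters at 16, Il6 an AP-1 match at -249 and NF-kB matches at -85 and -44, and F3 paired AP-1 matches at -146 and -135. Zfp60 and Zfp202 each held the ETS letters close to the start, at -25 and -16. These promoters were picked for their motifs and are not typical of the 2 extreme sets. Of the 12 matched promoters among the 15 most negative genes, 2 held the AP-1 letters, 1 CRE, 3 TATAAA and 1 ETS. Of the 12 among the 15 most positive, 4 held the ETS letters and 0 the AP-1, CRE or TATAAA letters. Promoters were matched for 9449 tested genes, among them 418 with a negative and 233 with a positive interaction. TATAAA stood in 14.8% of the promoters of negative genes and 6.01% of those of positive genes, against 8.64% of all. The AP-1 letters stood in 10.5% and 6.87%, against 6.48% of all. CCGGAAG stood in 14.8% of negative and 23.6% of positive genes, against 20.5% of all. The CRE letters stood in 5.02% and 3.004%, against 3.65% of all. The loose NF-kB pattern was in most promoters of every set, 73.7%, 79.8% and 71.5%, and the CArG box of serum response factor was in 1.91%, 1.29% and 1.43%. No matches of different motifs share letters in the promoters printed. These shares are descriptions of letters in a window, and carry no test.

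Cytokine genes had the lowest median interaction of the 28 lists, except with a mean of at least 5 CPM, where they were at -0.76 and immediate early transcription factors at -0.77. Of 33 tested members 16 had a negative and 0 a positive interaction, with a median of -1.11 (-1.05 with genes at 0 in a group set to the bound that 3 counts over the group give), against 4.41% negative and a median of -0.02 over all genes tested. LPS raised 23 of the 33 in MKO and 27 in WT, with median responses of 1.63 and 3.25. Without replicate 3 of both 0 h groups 20 members were negative, and with replicates 1 and 2 summed 13 were. These members were chosen with earlier results of these data known. Counts in the lists below are likewise read against 4.41% negative and 2.39% positive over all genes tested.

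Il12b encodes the p40 subunit shared by interleukins 12 and 23. It had 2.96, 4.02 and 3.71 CPM in MKO 3 h, 0.855, 0.711 and 0.598 in MKO 0 h, 45.6, 47.7 and 42.5 in WT 3 h and 0.517, 0.822 and 0.781 in WT 0 h. The 0 h groups overlapped, while the MKO 3 h libraries reached 4.02 CPM at most. The response was 2.31 (SE 0.19) in MKO and 5.98 (SE 0.15) in WT, an interaction of -3.67 (SE 0.32, adjusted p = 3.7e-06). Il6, a cytokine gene of the acute phase, had 7.66, 7.49 and 5.35 CPM in MKO 3 h, 0.183, 0.379 and 0.448 in MKO 0 h, 54.03, 57.3 and 47.9 in WT 3 h and 0.388, 0.352 and 0.1802 in WT 0 h. Here too the 0 h groups overlapped and the 3 h groups were far apart, with an interaction of -3.15 (SE 0.54, adjusted p = 0.002). Ifnb1, the interferon beta gene, had 1.16, 1.42 and 1.55 CPM in MKO 3 h, 0.183, 0.0474 and 0.0498 in MKO 0 h, 44.9, 46.7 and 56.7 in WT 3 h and 0, 0.117 and 0.1802 in WT 0 h. Both 0 h groups were at a few counts per library and the 3 h groups far apart. The interaction was -4.94 (SE 1.1, adjusted p = 0.014), and -4.18 (SE 1.6, adjusted p = 0.17) without replicate 1 of MKO 0 h. Csf2, the gene of the growth factor GM-CSF, had 0.755, 0.557 and 0.235 CPM in MKO 3 h, 0.0611, 0.1895 and 0.648 in MKO 0 h, 3.698, 3.28 and 3.75 in WT 3 h and 0, 0.0587 and 0.0601 in WT 0 h. Its WT 0 h group held 2 counts in all, so its interaction (adjusted p = 0.0045) is given without a size.

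Other cytokine and growth factor genes also responded less in MKO. Tnfsf15, which encodes the T cell co-stimulator TL1A, had 9.58, 10.3 and 9.62 CPM in MKO 3 h, 4.15, 3.27 and 2.39 in MKO 0 h, 49.9, 45.98 and 42.4 in WT 3 h and 3.104, 3.23 and 3.36 in WT 0 h, an interaction of -2.23 (SE 0.21, adjusted p = 8.8e-06). Its 0 h groups overlapped, and all 3 MKO 3 h libraries were far below the WT 3 h libraries. Il27, a subunit gene of interleukin 27, had an interaction of -1.95 (SE 0.22), with 3 h responses of 1.91 in MKO and 3.86 in WT. Il10, the gene of an anti-inflammatory cytokine, was at -1.57 (SE 0.25), and Il1rn, which encodes the natural antagonist of the interleukin 1 receptor, at -0.36 (SE 0.079). Csf1, the macrophage growth factor gene, had 74.9, 74.7 and 76.99 CPM in MKO 3 h, 43.3, 49.2 and 41.5 in MKO 0 h, 79.2, 84.5 and 83.2 in WT 3 h and 20.2, 17.9 and 21.9 in WT 0 h. Its MKO libraries were already high at 0 h, the 3 h groups lay close together, and the interaction was -1.28 (SE 0.11, adjusted p = 4.5e-06). Hbegf, an EGF family growth factor gene, had 15.6, 17.6 and 19.998 CPM in MKO 3 h, 9.71, 9.19 and 8.32 in MKO 0 h, 7.46, 7.15 and 8.01 in WT 3 h and 0.776, 1.47 and 1.38 in WT 0 h. It was higher in MKO than in WT at both times, and its interaction of -1.65 (SE 0.24) goes with the low WT 0 h level. In units of CPM the gain at 3 h was larger in MKO, as Hbegf averaged 17.7 ± 2.22 CPM in MKO 3 h, 9.07 ± 0.702 in MKO 0 h, 7.54 ± 0.438 in WT 3 h and 1.21 ± 0.377 in WT 0 h (SD, n = 3 each).

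That reversal between scales was rare. Of the 549 negative genes 5 gained more CPM in MKO than in WT despite the smaller fold, namely Ptx3, Hbegf, Lrrc32, Cish and Plau, and of the 298 positive genes 3 had the opposite sign on the CPM scale. These genes were singled out after their values were seen. Ptx3, the gene of the soluble pattern recognition protein pentraxin 3, had 10.1, 11.3 and 9.86 CPM in MKO 3 h, 1.22, 1.52 and 1.196 in MKO 0 h, 7.96, 8.56 and 6.44 in WT 3 h and 0.129, 0.0587 and 0.0601 in WT 0 h. MKO was above WT at both times, by a far smaller fold at 3 h, and the interaction was -3.46 (SE 0.44, adjusted p = 0.00015), with 4 counts over the WT 0 h group.

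Chemokine genes had 8 negative and 0 positive interactions among 25 tested, with a median of -0.55. Without replicate 3 of both 0 h groups 9 were negative and 3 positive, with a median of -0.24, and with replicates 1 and 2 summed 6 were negative. Ccl3, an attractant of monocytes and T cells, had 568, 600.5 and 596 CPM in MKO 3 h, 133, 131 and 150.4 in MKO 0 h, 1723, 1686 and 1689 in WT 3 h and 57.3, 63.4 and 53.5 in WT 0 h. The MKO libraries were below the WT ones at 3 h and above them at 0 h, with no overlap at either time. The genotype difference was -1.53 (SE 0.065) at 3 h and 1.25 (SE 0.068) at 0 h. Ccl4, a related chemokine gene, had 324, 311 and 300.3 CPM in MKO 3 h, 60.3, 55.02 and 70.3 in MKO 0 h, 1222, 1246 and 1263 in WT 3 h and 40.3, 45.9 and 42.7 in WT 0 h, with the same order of the 4 groups. Per transcript length, the deposited TPM of Ccl3 averaged 2300.3 ± 68.7 in MKO 3 h, 555 ± 3.57 in MKO 0 h, 5323 ± 51.9 in WT 3 h and 209.7 ± 10.3 in WT 0 h (SD, n = 3 each). Ccl2, the main monocyte attractant, had 663, 666 and 628 CPM in MKO 3 h, 222, 207 and 258 in MKO 0 h, 1486, 1496 and 1557 in WT 3 h and 217, 228 and 183 in WT 0 h. Its 0 h groups overlapped, and its interaction was -1.34 (SE 0.12, adjusted p = 4.9e-06). The neighbouring monocyte attractant gene Ccl7 was at -1.08 (SE 0.13), and the neutrophil attractant gene Cxcl2 at -1.204 (SE 0.12). Cxcl10, an interferon-inducible chemokine gene, was at -0.999 (SE 0.15).

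**Figure D2:**
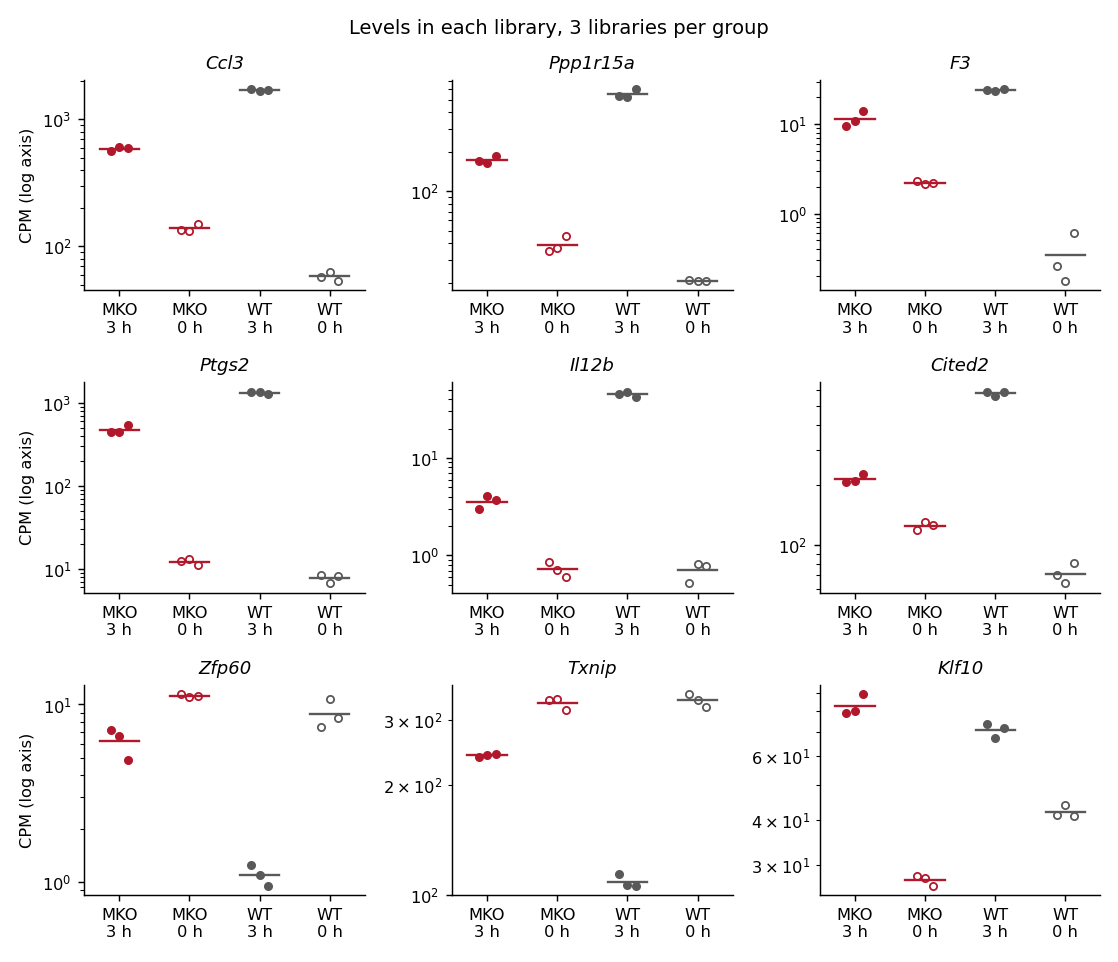
Each panel shows 1 gene, with CPM on a log axis, a point for each of 3 libraries per group and a line at the group mean, filled at 3 h and open at 0 h. For Ccl3, Ppp1r15a, F3, Ptgs2 and Cited2 the MKO libraries are below WT at 3 h and above WT at 0 h, and for Il12b the genotypes are separate at 3 h and overlap at 0 h. Zfp60 and Txnip are lowest in WT 3 h, and Klf10 rises more in MKO.

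Immediate early transcription factor genes had 14 negative and 2 positive interactions among 26 tested, with a median of -0.77. LPS raised 25 of them in MKO and all 26 in WT. Without replicate 3 of both 0 h groups 17 were negative and 2 positive, and with replicates 1 and 2 summed 9 and 1. Egr2, a zinc finger factor of macrophage activation, had 315, 313 and 354 CPM in MKO 3 h, 38.4, 37.3 and 31.5 in MKO 0 h, 492, 486 and 470.04 in WT 3 h and 13.3, 11.8 and 13.9 in WT 0 h. MKO was below WT at 3 h and above it at 0 h, with an interaction of -2.02 (SE 0.12, adjusted p = 9e-08). Nr4a3 and Nr4a1, orphan nuclear receptor genes, were at -1.64 (SE 0.4) and -1.22 (SE 0.32), and Maff, a small Maf factor gene, at -1.26 (SE 0.18). Egr1, the early growth response gene, was at -1.14 (SE 0.19) and Myc at -0.88 (SE 0.12). Klf2, a factor that restrains macrophage activation, had 18.1, 19.1 and 22.5 CPM in MKO 3 h, 14.4, 14.3 and 14.998 in MKO 0 h, 28.5, 30.1 and 26.7 in WT 3 h and 8.02, 8.51 and 9.67 in WT 0 h, an interaction of -1.24 (SE 0.14, adjusted p = 5.5e-05).

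Fos and Klf10 went the other way within the same list. Klf10, a factor induced by TGF-beta, had 79.1, 80.3 and 89.1 CPM in MKO 3 h, 28.03, 27.5 and 26.3 in MKO 0 h, 73.7, 67.5 and 72.01 in WT 3 h and 41.2, 43.9 and 40.96 in WT 0 h. It was lowest in MKO 0 h and highest in MKO 3 h, and its response was 1.604 (SE 0.068) in MKO and 0.76 (SE 0.067) in WT, an interaction of 0.85 (SE 0.095, adjusted p = 5.1e-05). Fos, a subunit gene of the AP-1 factor, had 195, 202 and 228 CPM in MKO 3 h, 65.8, 71.8 and 75.3 in MKO 0 h, 145, 149 and 165 in WT 3 h and 83.1, 84.03 and 70.1 in WT 0 h. The 0 h groups overlapped and the MKO 3 h libraries were above those of WT 3 h, with an interaction of 0.598 (SE 0.12, adjusted p = 0.0072), and 0.54 (SE 0.17, adjusted p = 0.18) with replicates 1 and 2 summed.

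Cited2 and Plagl1 were among the transcription regulators with the clearest differences outside that list. Cited2, a co-regulator that competes with HIF1A for CBP and p300, had 206, 209 and 226 CPM in MKO 3 h, 118, 129.7 and 125 in MKO 0 h, 582, 561 and 586 in WT 3 h and 70.03, 63.9 and 80.5 in WT 0 h. LPS raised it by 0.78 (SE 0.074) in MKO and 3.01 (SE 0.079) in WT, an interaction of -2.23 (SE 0.11, adjusted p = 1.5e-08). Plagl1, a zinc finger factor gene, had 0.755, 0.929 and 0.469 CPM in MKO 3 h, 0.672, 0.948 and 0.747 in MKO 0 h, 6.33, 6.44 and 7.62 in WT 3 h and 0.582, 0.705 and 0.721 in WT 0 h. Its level at 3 h was in the range of 0 h in MKO, at -0.18 (SE 0.3, adjusted p = 0.72), and far above 0 h in WT, at 3.33 (SE 0.24, adjusted p = 5.7e-08). Gfi1, a transcriptional repressor gene, was at -3.43 (SE 0.5), with responses of 0.84 in MKO (adjusted p = 0.096) and 4.27 in WT. Nfil3, a repressor of the circadian output, had 25.9 ± 5.402 CPM in MKO 3 h, 21.9 ± 3.26 in MKO 0 h, 63.9 ± 4.53 in WT 3 h and 24.1 ± 1.29 in WT 0 h (SD, n = 3 each). LPS raised it in WT, its change in MKO was 0.24 (SE 0.13, adjusted p = 0.26), and the interaction was -1.17 (SE 0.19, adjusted p = 0.0011).

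Genes of NF-kB subunits and its feedback inhibitors had 15 negative and 0 positive interactions among 26 tested, with a median of -0.55. Summing replicates 1 and 2 left 8 negative, and leaving out replicate 3 of both 0 h groups gave 17. Tnfaip2, a TNF-induced gene, had 770.1, 757 and 818 CPM in MKO 3 h, 243, 239 and 219.9 in MKO 0 h, 1709, 1709 and 1704 in WT 3 h and 188, 175 and 185 in WT 0 h, an interaction of -1.48 (SE 0.075, adjusted p = 2.4e-08). MKO was far below WT at 3 h and above it at 0 h. Traf1, an adaptor of TNF receptors, had 111, 103 and 102 CPM in MKO 3 h, 20.6, 19.9 and 22.7 in MKO 0 h, 251, 262 and 261 in WT 3 h and 19.1, 19.5 and 17.6 in WT 0 h, an interaction of -1.46 (SE 0.097, adjusted p = 2.8e-07). Peli1, which encodes a ubiquitin ligase of the Toll-like receptor pathway, had 92.4, 95.3 and 95.8 CPM in MKO 3 h, 59.2, 63.97 and 56.1 in MKO 0 h, 279, 278 and 269.9 in WT 3 h and 67.6, 69.8 and 71.3 in WT 0 h. MKO was below WT at both times, the more so at 3 h, with an interaction of -1.32 (SE 0.083, adjusted p = 1.7e-07). Tnfaip3, the gene of the deubiquitinase A20, was at -0.91 (SE 0.13) and Nfkbiz, an atypical inhibitor of NF-kB needed for Il6 and Il12b, at -1.01 (SE 0.1). The subunit genes Rel, Nfkb1, Nfkb2 and Rela were at -1.01, -0.81, -0.62 and -0.46, all called.

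MAP kinase phosphatase and Sprouty genes, which switch off the MAP kinases, had 9 negative and 1 positive interaction among 16 tested, with a median of -0.77. Summing replicates 1 and 2 left 7 negative and 0 positive, and leaving out replicate 3 of both 0 h groups gave 11 and 1. Dusp1, which inactivates p38 and JNK, had 560.02, 565 and 645 CPM in MKO 3 h, 50.1, 55.4 and 57.6 in MKO 0 h, 1086, 1059 and 1147 in WT 3 h and 45.6, 45.7 and 49.4 in WT 0 h. The response was smaller in MKO by -1.11 (SE 0.099, adjusted p = 4.9e-06). Dusp8, a phosphatase of JNK, had 10.2, 10.6 and 12.1 CPM in MKO 3 h, 1.405, 1.66 and 1.69 in MKO 0 h, 16.5, 14.7 and 17.7 in WT 3 h and 0.711, 0.235 and 0.4204 in WT 0 h, an interaction of -2.39 (SE 0.32, adjusted p = 0.00024). It was lower in MKO than in WT at 3 h and higher at 0 h. Spry1, an inhibitor gene of growth factor signalling, had 0.697, 1.11 and 1.31 CPM in MKO 3 h, 0.611, 0.332 and 0.548 in MKO 0 h, 5.95, 3.54 and 3.64 in WT 3 h and 0.129, 0.117 and 0 in WT 0 h. Its LPS response was 1.09 (SE 0.42, adjusted p = 0.096) in MKO and 5.63 (SE 0.51, adjusted p = 6e-07) in WT, and its WT 0 h group held 4 counts in all. Dusp6, which is specific for ERK, was the positive member, with 15.7, 17.5 and 16.5 CPM in MKO 3 h, 23.02, 21.9 and 19.4 in MKO 0 h, 13.9, 15.6 and 16.6 in WT 3 h and 32.4, 33.4 and 26.5 in WT 0 h. LPS lowered it in both genotypes and less in MKO, an interaction of 0.62 (SE 0.15, adjusted p = 0.019).

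**Figure D3:**
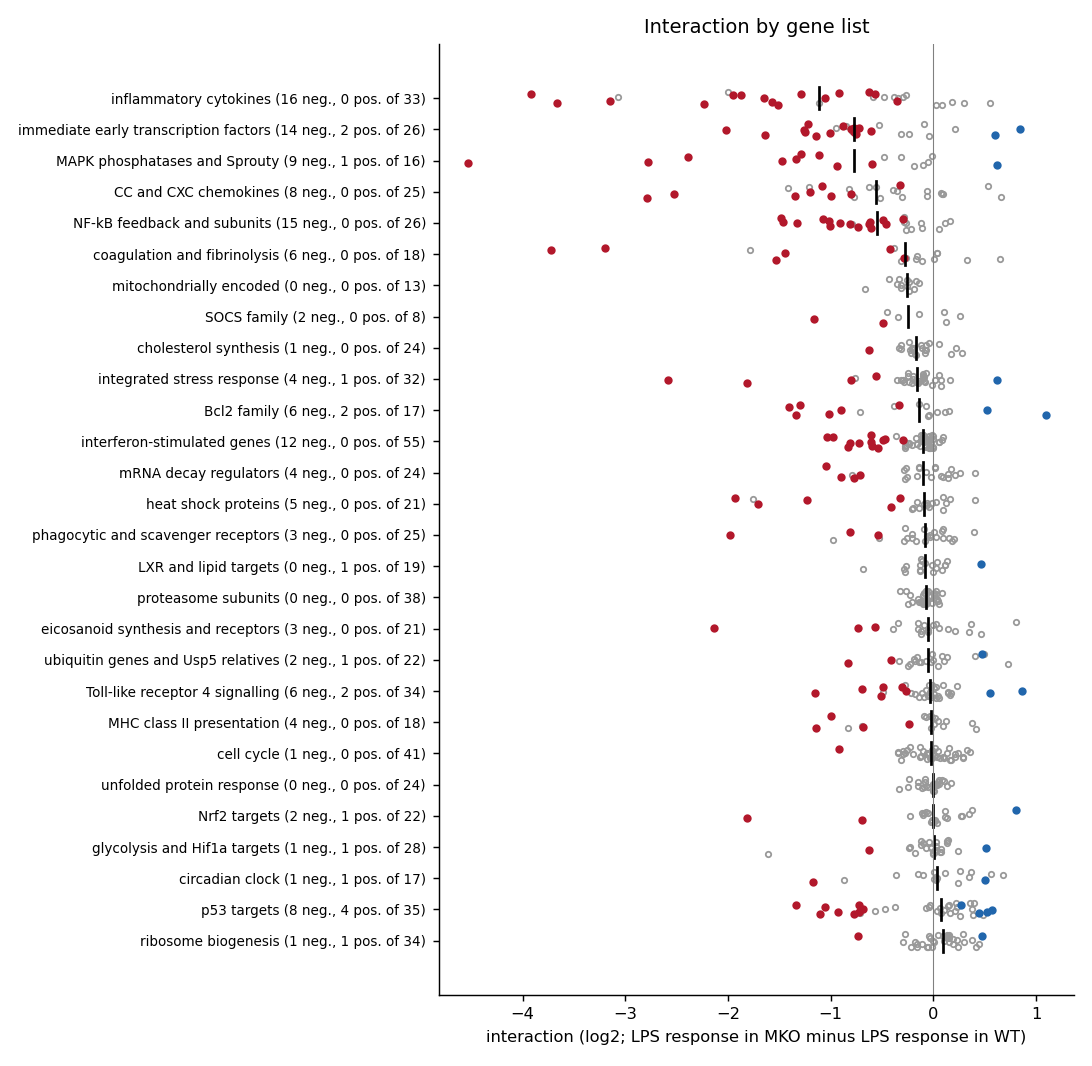
Each row is 1 of 28 gene lists, ordered by median interaction, and each point a tested member with at least 4 counts in every group, on a log2 axis of MKO response minus WT response. Red and blue mark called negative and positive members, open points were not called, and the bar is the median over all tested members. Cytokines have a median of -1.11, with 16 of 33 members called negative, while unfolded protein response and proteasome genes sit around 0 with none called.

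Regulators of mRNA decay had 4 negative interactions and 0 positive among 24 tested, with a median of -0.10 (0.03 under scaling by library size alone), and without replicate 3 of both 0 h groups 11 and 1. The shares over all genes tested were 4.41% negative and 2.39% positive. Zfp36, whose product tristetraprolin binds AU-rich elements of cytokine mRNAs, had 1383, 1449.6 and 1605 CPM in MKO 3 h, 224, 229 and 244 in MKO 0 h, 2962, 2866 and 2868 in WT 3 h and 227, 215 and 221 in WT 0 h. The 0 h groups overlapped and MKO 3 h was far below WT 3 h, an interaction of -1.04 (SE 0.081, adjusted p = 1.5e-06). Btg1, Btg2 and Zfp36l1 were the other 3, at -0.896, -0.77 and -0.71. Among 8 SOCS genes, feedback inhibitors of cytokine receptors, Cish (-1.16 (SE 0.23)) and Socs3 (-0.49 (SE 0.085)) were negative, and neither call held with replicates 1 and 2 summed.

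Of 34 genes of Toll-like receptor 4 signalling 6 were negative and 2 positive, against 6.80% called in either direction over all genes tested, with a median of -0.03 (0.10 under scaling by library size alone). With replicates 1 and 2 summed 2 were negative and 0 positive, and without replicate 3 of both 0 h groups 7 and 4. Cd14, the co-receptor gene, had 789, 758 and 816 CPM in MKO 3 h, 369, 359 and 419.5 in MKO 0 h, 1419, 1416 and 1309 in WT 3 h and 309, 314 and 283 in WT 0 h. MKO was below WT at 3 h and above it at 0 h, an interaction of -1.15 (SE 0.092, adjusted p = 2.1e-06). Irak2, a kinase of the MyD88 complex, was at -0.69 (SE 0.082), and the TRIF and TRAM genes Ticam1 and Ticam2 at -0.51 and -0.49. Tab1, a subunit of the TAK1 kinase complex, was positive. It had 10.8, 12.3 and 11.8 CPM in MKO 3 h, 14.2, 13.3 and 17.8 in MKO 0 h, 7.897, 7.79 and 8.46 in WT 3 h and 20.8, 19.8 and 16.8 in WT 0 h, an interaction of 0.87 (SE 0.17, adjusted p = 0.0059), and 0.78 (SE 0.22, adjusted p = 0.14) with replicates 1 and 2 summed.

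Interferon-stimulated genes had 12 negative and 0 positive interactions among 55 tested, with a median of -0.10 that turned to 0.03 under scaling by library size alone. LPS raised 12 of the 55 in MKO and 26 in WT. Leaving out replicate 3 of both 0 h groups gave 17 negative and 6 positive, and summing replicates 1 and 2 left 7 negative. Rsad2, the gene of the antiviral enzyme viperin, had 813, 830.02 and 889 CPM in MKO 3 h, 693, 727 and 665 in MKO 0 h, 2466, 2446 and 2561 in WT 3 h and 1024, 1015 and 964 in WT 0 h. It rose by 0.28 in MKO and 1.32 in WT, an interaction of -1.03 (SE 0.073, adjusted p = 5e-07). Gbp5, a guanylate-binding protein gene of inflammasome activation, had 337, 333 and 378 CPM in MKO 3 h, 182, 182 and 197 in MKO 0 h, 718, 703 and 679 in WT 3 h and 202, 203 and 168 in WT 0 h, an interaction of -0.97 (SE 0.11, adjusted p = 4e-05). Its 0 h groups overlapped. Irf1, a factor of the interferon response, was at -0.81 (SE 0.081), and Isg15, which encodes a ubiquitin-like modifier, at -0.49 (SE 0.13).

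Coagulation and fibrinolysis genes had 6 negative and 0 positive interactions among 18 tested, with a median of -0.28. F3, the gene of tissue factor, which starts the extrinsic coagulation cascade, had 9.52, 10.96 and 13.9 CPM in MKO 3 h, 2.32, 2.13 and 2.19 in MKO 0 h, 24.3, 23.8 and 24.5 in WT 3 h and 0.259, 0.176 and 0.601 in WT 0 h. It was lower in MKO than in WT at 3 h and several-fold higher at 0 h, with an interaction of -3.72 (SE 0.35, adjusted p = 9.5e-06). Plaur, the urokinase receptor gene, had 149, 151 and 158 CPM in MKO 3 h, 77.9, 75.3 and 80.5 in MKO 0 h, 150.2, 147 and 145 in WT 3 h and 27.03, 27.5 and 28.4 in WT 0 h. Here the 3 h levels of the genotypes overlapped and the MKO libraries were far above WT at 0 h, with an interaction of -1.45 (SE 0.079, adjusted p = 6.1e-08). Serpinb2, the PAI-2 gene, had 7.61, 8.54 and 8.64 CPM in MKO 3 h, 1.04, 1.09 and 0.648 in MKO 0 h, 83.3, 82.2 and 76.2 in WT 3 h and 2.78, 3.88 and 2.64 in WT 0 h, below WT at both times in MKO, an interaction of -1.54 (SE 0.26, adjusted p = 0.0018).

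Among 21 eicosanoid genes Ptgs2, the cyclooxygenase 2 gene, had 447, 444 and 537 CPM in MKO 3 h, 12.6, 12.98 and 11.1 in MKO 0 h, 1357, 1347 and 1282 in WT 3 h and 8.34, 6.69 and 8.23 in WT 0 h. The interaction was -2.14 (SE 0.14, adjusted p = 2.1e-07). The prostaglandin E2 receptor genes Ptger2 (-0.73 (SE 0.19)) and Ptger4 (-0.57 (SE 0.087)) were also negative, neither of them with replicates 1 and 2 summed. Edn1, which encodes the vasoconstrictor peptide endothelin 1, had 3.08, 3.53 and 4.08 CPM in MKO 3 h, 0.366, 0.426 and 0.698 in MKO 0 h, 24.1, 25.5 and 23.8 in WT 3 h and 0.129, 0.294 and 0.2402 in WT 0 h. It barely differed in units of CPM at 0 h and was several-fold lower in MKO at 3 h. Gem, a small GTPase gene, had 23.6, 27.2 and 29.1 CPM in MKO 3 h, 1.34, 1.14 and 0.747 in MKO 0 h, 93.01, 96.98 and 93.6 in WT 3 h and 0.647, 0.587 and 0.3604 in WT 0 h, an interaction of -2.82 (SE 0.31, adjusted p = 3.9e-05). Sdc4, a heparan sulfate proteoglycan gene, had 519.8, 516 and 511 CPM in MKO 3 h, 160.1, 161 and 153 in MKO 0 h, 1287, 1269 and 1274 in WT 3 h and 153, 148 and 157 in WT 0 h. Its 0 h groups overlapped, and the interaction of -1.36 (SE 0.063, adjusted p = 1.5e-08) came with one of the smallest p-values of the negative genes.

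**Figure D4:**
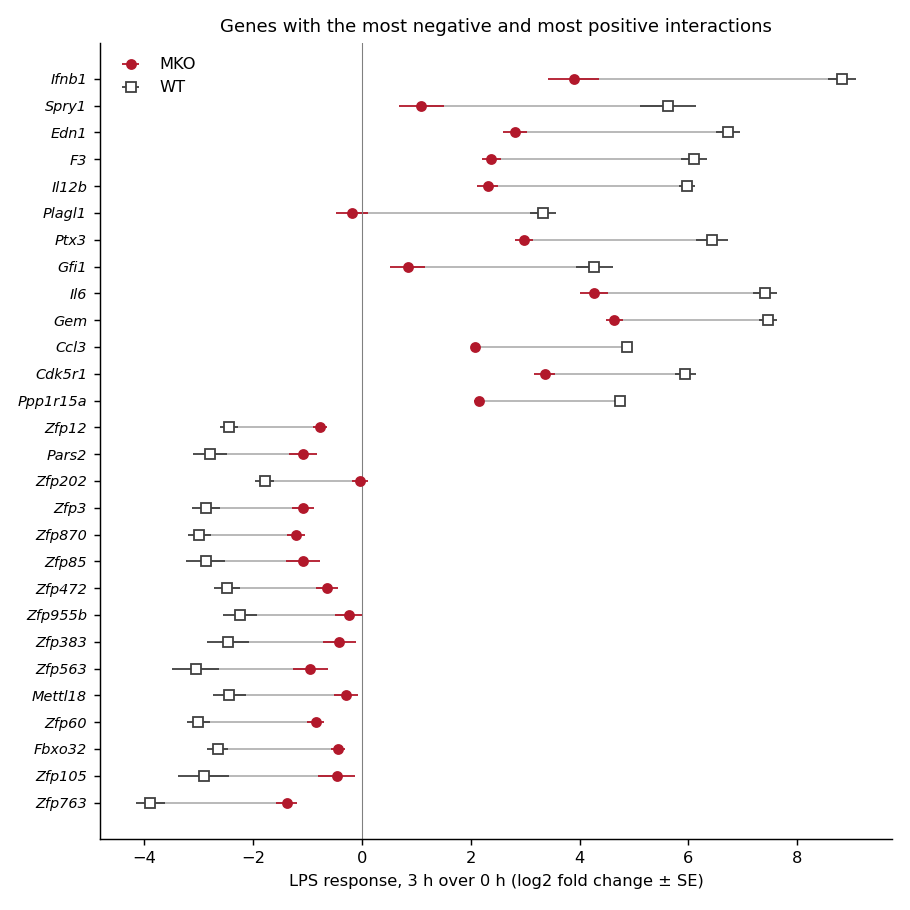
Log2 LPS response ± SE in MKO (red circles) and WT (open squares) for 13 of the 15 named genes with the most negative interactions, Csf2 being left out for its 2 counts in WT 0 h, and the 15 most positive ones. In the upper set the WT response is 3.33 or more and the MKO response is 2.09 to 4.64 in 10 genes, with Plagl1, Gfi1 and Spry1 lower. In the lower set the WT response is between -3.89 and -1.79 and the MKO response is nearer to 0 in every gene.

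Lists of stress genes differed in their calls. Of 32 genes of the integrated stress response 4 were negative and 1, the eIF2alpha kinase gene Eif2ak3 (0.62 (SE 0.14)), positive. Over all genes tested 4.41% were negative and 2.39% positive. With replicates 1 and 2 summed 3 of the list were negative and 0 positive, so the positive call was lost. Without replicate 3 of both 0 h groups 6 were negative and 1 positive. Ppp1r15a, whose product GADD34 directs the dephosphorylation of eIF2alpha, had 172, 165 and 186 CPM in MKO 3 h, 35.2, 36.8 and 45.1 in MKO 0 h, 537, 525 and 601 in WT 3 h and 21.1, 20.7 and 20.7 in WT 0 h. MKO was far below WT at 3 h and above it at 0 h, an interaction of -2.58 (SE 0.13, adjusted p = 1.9e-08). Slc7a11, the cystine transporter gene, had 48.1, 50.8 and 50.7 CPM in MKO 3 h, 18.3, 15.4 and 10.3 in MKO 0 h, 121, 112 and 111 in WT 3 h and 10.6, 6.81 and 11.4 in WT 0 h, an interaction of -1.81 (SE 0.24, adjusted p = 0.00023). None of the 24 tested genes in the unfolded protein response list was called, and without replicate 3 of both 0 h groups 2 were negative and 2 positive. Eif2ak3, whose kinase is also a sensor of that response, was counted with the integrated stress response. Among 21 heat shock genes 5 were negative, and 3 with replicates 1 and 2 summed. Hspa1a had 26.9, 24.8 and 30.3 CPM in MKO 3 h, 5.68, 6.25 and 5.13 in MKO 0 h, 57.8, 61.4 and 60.1 in WT 3 h and 2.78, 3.93 and 3.003 in WT 0 h, an interaction of -1.93 (SE 0.17, adjusted p = 5.1e-06), and its near-identical copy Hspa1b -1.71 (SE 0.2), so that reads may be shared between them. Dnajb4, a co-chaperone gene, had 79.7, 83.7 and 84.2 CPM in MKO 3 h, 47.6, 51.2 and 45.2 in MKO 0 h, 85.4, 91.3 and 89.04 in WT 3 h and 23.2, 21.6 and 21.2 in WT 0 h. MKO was close to WT at 3 h and above it at 0 h, an interaction of -1.23 (SE 0.093, adjusted p = 1.1e-06).

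Of 35 targets of p53, 8 were negative and 4 positive, against 4.41% and 2.39% of all genes tested. With replicates 1 and 2 summed 6 were negative and 1 positive. Cdkn1a, the p21 gene, had 888, 886 and 937 CPM in MKO 3 h, 382, 399 and 413 in MKO 0 h, 1034, 1012 and 942 in WT 3 h and 239, 235 and 217 in WT 0 h. The 3 h groups lay close together and the MKO libraries were above WT at 0 h, with an interaction of -0.93 (SE 0.079, adjusted p = 3.3e-06). Pmaip1, the gene of the BH3-only protein NOXA, had 95.7, 98.8 and 108 CPM in MKO 3 h, 53.7, 51.8 and 45.3 in MKO 0 h, 89.9, 94.5 and 93.6 in WT 3 h and 19.2, 19.02 and 16.4 in WT 0 h, an interaction of -1.34 (SE 0.12, adjusted p = 3.8e-06). Plk2, a polo-like kinase gene, had an interaction of -1.11 (SE 0.078). Ccng1, Aen, Trp53inp1 and Sesn1 were the positive ones, at 0.27, 0.44, 0.52 and 0.58. In the Bcl2 family 6 of 17 were negative, the 3 near-identical survival genes Bcl2a1a, Bcl2a1b and Bcl2a1d among them (-1.41, -1.02 and -1.295). Bmf (1.09 (SE 0.21)) and Bid (0.52 (SE 0.12)), which promote cell death, were positive. The NOXA gene Pmaip1, which also promotes cell death, was negative, as given above.

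In the metabolic and housekeeping lists the calls are read against the 6.80% of all genes tested. Cholesterol synthesis had 1 of 24 (Insig1, the gene of a sterol sensor, -0.63 (SE 0.078)), glycolysis 2 of 28, the cell cycle 1 of 41 (the proliferation marker Mki67, -0.92 (SE 0.17)) and ribosome biogenesis 2 of 34. Proteasome subunits had 0 of 38 and mitochondrially encoded genes 0 of 13, with medians of -0.07 (0.07 under scaling by library size alone) and -0.26. Leaving out replicate 3 of both 0 h groups, cholesterol synthesis had 8 negative calls, glycolysis 3 negative and 5 positive, the cell cycle 6 negative and 1 positive, ribosome biogenesis 1 and 7, and the proteasome 2 and 5. With replicates 1 and 2 summed, the cell cycle and glycolysis had 0 calls, and Mki67 was at -0.81 (SE 0.23, adjusted p = 0.14). Cholesterol synthesis and ribosome biogenesis then had 1 negative call each. Of 22 genes of ubiquitin and of Usp5 relatives 2 were negative (Usp53 at -0.83 and Usp16 at -0.42) and 1 positive (Usp42 at 0.47), and all 3 calls were lost under several alternatives.

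The genes whose symbol is Zfp and a number, a set formed after values were seen, numbered 335 among those tested. Of these 59 (17.6%) had a positive interaction, against 239 of the 12120 other genes (1.97%), and 7 a negative one. Their median interaction was 0.41, against -0.02 in the others, and their median LPS response was -0.32 in MKO and -0.76 in WT. Summing replicates 1 and 2 left 19 positive, and leaving out replicate 3 of both 0 h groups gave 85 positive and 25 negative. Their levels were low, with a median of 6.79 CPM, and most encode DNA-binding proteins with arrays of C2H2 zinc fingers, many with a KRAB repressor domain. The 7 negative ones include Zfp36 and Zfp36l1, which are given above as regulators of mRNA decay. Neighbouring members are close copies of each other, so counts may be shared among them.

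Zfp763 had 1.74, 1.42 and 1.41 CPM in MKO 3 h, 3.11, 4.74 and 4.04 in MKO 0 h, 0.313, 0.322 and 0.2802 in WT 3 h and 4.85, 4.52 and 4.504 in WT 0 h. MKO 3 h was far above WT 3 h, an interaction of 2.51 (SE 0.35, adjusted p = 0.00035). Zfp60 had 7.199, 6.69 and 4.88 CPM in MKO 3 h, 11.4, 11.04 and 11.1 in MKO 0 h, 1.25, 1.09 and 0.953 in WT 3 h and 7.44, 10.8 and 8.35 in WT 0 h. All MKO 3 h libraries were above all WT 3 h libraries, and the interaction was 2.16 (SE 0.27, adjusted p = 0.00014). Zfp202 had 6.15, 5.51 and 6.43 CPM in MKO 3 h, 5.62, 5.88 and 7.03 in MKO 0 h, 2.01, 1.48 and 2.297 in WT 3 h and 7.24, 6.11 and 6.85 in WT 0 h. LPS lowered it in WT, its change in MKO was -0.03 (SE 0.15, adjusted p = 0.91), and the interaction was 1.76 (SE 0.23, adjusted p = 0.00017). On chromosome 17, between 32815449 and 33394641 (mm10), 10 Zfp genes were tested, 7 of them called positive, and all 10 lay above 0, from 0.28 to 2.51. On chromosome 13, between 67128228 and 67792512, 18 were tested, 7 were called positive and 16 lay above 0, with a median of 0.63.

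**Figure D5:**
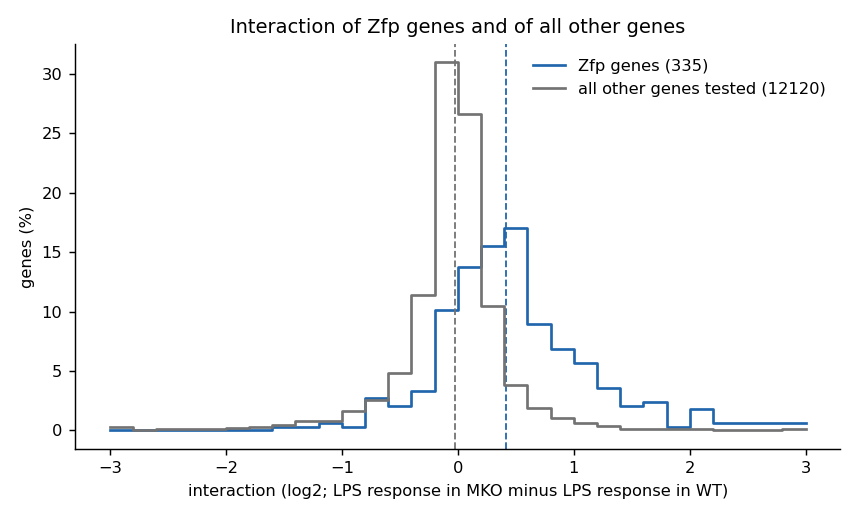
Share of genes (%) by interaction, in bins of the log2 difference of the LPS responses of MKO and WT, for 335 Zfp genes (blue) and the 12120 other genes tested (grey), with dashed lines at the medians and values past the ends put in the end bins. The Zfp genes are centred at 0.41 and the others at -0.02.

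Other genes with a smaller fall in MKO included Txnip, the gene of an arrestin that restrains thioredoxin and glucose uptake, with 237, 242 and 243 CPM in MKO 3 h, 340.3, 343 and 320.001 in MKO 0 h, 114, 106 and 106 in WT 3 h and 353, 341 and 326 in WT 0 h. The 0 h groups overlapped, MKO 3 h was far above WT 3 h, and the interaction was 1.17 (SE 0.076, adjusted p = 2.2e-07). Its relative Arrdc3 had an interaction of 0.97 (SE 0.1, adjusted p = 2.3e-05). Fbxo32, a ubiquitin ligase subunit gene known from muscle atrophy, had 9.58, 11.1 and 9.11 CPM in MKO 3 h, 15.9, 12.3 and 12.2 in MKO 0 h, 1.82, 1.03 and 1.34 in WT 3 h and 9.18, 8.57 and 8.77 in WT 0 h. The fall in WT was -2.65 (SE 0.19), the change in MKO -0.44 (SE 0.13), and the interaction 2.22 (SE 0.24, adjusted p = 3.2e-05). Cd300lb, an activating receptor gene of myeloid cells, had 106, 104 and 98.1 CPM in MKO 3 h, 178, 182 and 175 in MKO 0 h, 55.1, 57.3 and 61.4 in WT 3 h and 179.6, 185 and 169.5 in WT 0 h, an interaction of 0.82 (SE 0.085, adjusted p = 2.4e-05). Its 0 h groups overlapped and its 3 h groups did not.

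Among the 7 genes with a larger log2 rise in MKO, Gpr84 encodes a receptor for medium-chain fatty acids. It had 82.6, 76.1 and 67.2 CPM in MKO 3 h, 5.31, 5.54 and 7.32 in MKO 0 h, 109, 104 and 89.3 in WT 3 h and 17.01, 17.9 and 13.8 in WT 0 h. MKO was below WT at both times, by a smaller fold at 3 h, and the interaction was 0.99 (SE 0.18, adjusted p = 0.0036). In units of CPM the gain at 3 h was smaller in MKO. Gpr84 averaged 75.3 CPM in MKO 3 h, 6.06 in MKO 0 h, 101 in WT 3 h and 16.2 in WT 0 h. With replicates 1 and 2 summed its interaction was 0.91 (SE 0.24, adjusted p = 0.11). Fam46c, a cytoplasmic poly(A) polymerase gene, rose in MKO by 0.802 (SE 0.096), its change in WT was 0.12 (SE 0.097, adjusted p = 0.4), and the interaction was 0.68 (SE 0.14, adjusted p = 0.0059). The Fam46c call was also lost with replicates 1 and 2 summed (0.76, SE 0.18, adjusted p = 0.071). In the group with a fitted fall in MKO and a rise in WT, Spp1, the osteopontin gene, had 5171, 5131 and 5051 CPM in MKO 3 h, 5274, 5104 and 5292 in MKO 0 h, 4225, 4266 and 4069.7 in WT 3 h and 2920.3, 2972 and 2948 in WT 0 h. WT rose by 0.51 (SE 0.04), the MKO change was -0.03 (SE 0.039, adjusted p = 0.66), and the interaction was -0.54 (SE 0.056, adjusted p = 2.4e-05). Ednrb, a receptor gene of endothelin, had 36.1, 35.8 and 35.8 CPM in MKO 3 h, 40.98, 42.8 and 34.7 in MKO 0 h, 86.1, 77.02 and 83.8 in WT 3 h and 47.7, 51.1 and 47.6 in WT 0 h, with an interaction of -0.89 (SE 0.11, adjusted p = 0.00011).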

How the data were processed

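RNA of mouse peritoneal macrophages was sequenced on an Illumina protocol, per the labels' protocols. The submitters' processing notes name fastp, a read trimmer, and the mm10 genome. The aligner, counter, strand setting and annotation were not stated, so it is not known whether reads of overlapping genes on the 2 strands were counted apart. Near-identical copies may also split reads. The authors deposited total counts per gene, not normalized, for 48709 genes, per the file headers. The authors also deposited TPM values in that table, per the file headers, which are printed for 1 gene and entered no test.

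Counts of the 12 libraries were fitted in edgeR 4.0.16 (R 4.3.3) with 1 mean per group, after filterByExpr over the 4 groups and TMM scaling. The quasi-likelihood test covered 12455 of 19195 genes with any count. The contrast was the LPS response in MKO minus that in WT, and calls needed a p under 0.05 after Benjamini-Hochberg adjustment over all genes tested. SE came from the log2 value and its F statistic. The fit was tested on simulated data. DESeq2 1.42.0, other scalings and filters, a replicate block, summed replicates and left-out libraries were alternatives. 

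Members, lists and alternatives were chosen with earlier results of these data known, and no set test was run. Named by rule were Usp5, the 15 most negative and 15 most positive called interactions (mean CPM of 1 or more, and responses that do not overlap between genotypes), the 3 members of each list with the smallest p, the 5 genes with the smallest p in each pattern of directions, and genes with opposite called LPS changes. Further called list members are given to show what a list's count holds, and were chosen after their values were seen, as were the Zfp set, its chromosome stretches and genes with another sign on the CPM scale. 1 gene that this rule names is not reported here. Gene structures came from GENCODE M21 and promoters from RefSeq (GRCm38.p6).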

Additional observations from a re-analysis of the deposited data

Results flagged for a closer look

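The response to LPS differed between the genotypes by the interaction test in 847 genes, counted in the report. In 5 of these LPS moved the gene in opposite directions, with both changes past the threshold. Cx3cr1, the fractalkine receptor gene of monocytes and macrophages, had 20.1, 19.9 and 18.97 CPM in MKO 3 h, 16.4, 15.2 and 15.2 in MKO 0 h, 12.5, 13.6 and 11.8 in WT 3 h and 20.5, 21.7 and 22.9 in WT 0 h. It rose by 0.33 (SE 0.081, adjusted p = 0.011) in MKO and fell in WT, at -0.78 (SE 0.083, adjusted p = 3.6e-06), an interaction of 1.12 (SE 0.12, adjusted p = 2.4e-05). All MKO 3 h libraries were above all WT 3 h libraries, and all MKO 0 h libraries below those of WT 0 h.

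Cdkn1b, the p27 cell cycle inhibitor gene, was lower at 3 h in MKO and higher in WT, with 27.7 ± 1.14 CPM in MKO 3 h, 33.5 ± 2.78 in MKO 0 h, 48.2 ± 2.31 in WT 3 h and 35.9 ± 1.42 in WT 0 h (SD, n = 3 each) and an interaction of -0.69 (SE 0.11, adjusted p = 0.00067). Pfkfb3, which encodes an enzyme that speeds up glycolysis, was higher at 3 h in MKO and lower in WT, with an interaction of 0.51 (SE 0.095, adjusted p = 0.0035). Its levels averaged 145 ± 10.8 CPM in MKO 3 h, 123 ± 7.35 in MKO 0 h, 144 ± 6.65 in WT 3 h and 173 ± 4.902 in WT 0 h. Tgfbi, an extracellular matrix protein gene, had an interaction of 0.38 (SE 0.074, adjusted p = 0.0045), with LPS changes of 0.23 in MKO and -0.15 in WT. Lrrc8a, a subunit gene of the volume-regulated anion channel, had one of 0.56 (SE 0.11, adjusted p = 0.0067), with LPS changes of 0.26 in MKO and -0.297 in WT. With replicates 1 and 2 summed, the interactions of Cdkn1b, Pfkfb3, Tgfbi and Lrrc8a were not called (adjusted p = 0.069, 0.071, 0.23 and 0.089).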

How the results depend on the processing

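The interaction was called in 847 genes, 549 negative and 298 positive. Without replicate 3 of both 0 h groups 2535 genes were called, 1698 negative and 837 positive. With replicates 1 and 2 summed there were 294, 237 negative and 57 positive. With scaling by library size alone 382 negative and 829 positive genes were called. A minimum size of 1 on the log2 scale left 248, 172 negative and 76 positive. The causes of these moves were not tested, beyond fewer libraries and a stricter rule by construction. Leaving out 1 library at a time gave 603 to 1132 called genes, 409 to 802 negative and 180 to 348 positive. The highest counts came without replicate 3 of WT 0 h (1132) and without replicate 3 of MKO 0 h (1019). The positive count was lowest without replicate 1 of MKO 3 h (180), replicate 2 of WT 3 h (187) and replicate 1 of WT 3 h (194). DESeq2 called 970 genes, scaling by DESeq2's size factors 827, no filter on low counts 888, and a mean of at least 5 CPM 789.

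Replicate numbers showed no sign of pairing the samples. The 18 correlations between deviations of same-numbered libraries ran from -0.31 to 0.077, and those of different-numbered libraries from -0.15 to 0.25. Deviations are taken from the mean of 3 libraries and so depend on each other, and these values cannot settle whether the samples were paired. With the replicate number as a block 672 genes were called, 462 negative and 210 positive, and 653 of these were among the 847.

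Of the 131 named genes 111 had a called interaction, and none of these changed sign in any alternative. With replicates 1 and 2 summed 32 lost their call, with the replicate block 11, and without any 1 library 2 to 11. The calls of Rrp12, Cd274 and Zfp85 were lost most often, under 14, 13 and 11 alternatives. Zfp105 and Ptger2 lost theirs under 9, and Zfp563, Pars2, Nr1h3 and Osgin1 under 8. The causes of these losses were not tested. Counts limit the depth of low genes, as 1 count was worth 0.0469 to 0.0647 CPM, so levels under about 1 CPM at 0 h rest on few reads.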

Other observations

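Phagocytic and scavenger receptor genes had 3 negative and 0 positive interactions among 25 tested, none with replicates 1 and 2 summed, and 6 and 2 without replicate 3 of both 0 h groups. This and the counts below are read against 4.41% negative and 2.39% positive over all genes tested. Olr1, the oxidised LDL receptor gene, had 22.2, 23.1 and 25.7 CPM in MKO 3 h, 1.47, 1.61 and 0.498 in MKO 0 h, 55.8, 54.9 and 58.9 in WT 3 h and 0.453, 0.705 and 0.961 in WT 0 h, and all MKO 3 h libraries were below all WT 3 h libraries, with an interaction of -1.98 (SE 0.4, adjusted p = 0.006). Clec4e, which encodes the lectin receptor Mincle, had 596 ± 4.03 CPM in MKO 3 h, 57.9 ± 2.75 in MKO 0 h, 1438 ± 8.08 in WT 3 h and 95.97 ± 10.8 in WT 0 h (SD, n = 3 each), an interaction of -0.54 (SE 0.097, adjusted p = 0.0027). Among 18 antigen presentation genes 4 were negative, and without replicate 3 of both 0 h groups 3 were negative and 7 positive. The 4 were the co-stimulator genes Cd40 (-1.14 (SE 0.12)), Icosl (-0.99 (SE 0.18)) and Cd80 (-0.68 (SE 0.19)) and the PD-L1 gene Cd274 (-0.24 (SE 0.064)), whose call was lost under 13 alternatives. In the Nrf2 list, the thioredoxin reductase gene Txnrd1 was negative (-0.69 (SE 0.084)) and Osgin1, an oxidative stress gene, positive (0.81 (SE 0.2)), the second lost under 8 alternatives. Nr1h3, which encodes the oxysterol receptor LXR alpha, was positive (0.46 (SE 0.11)) and Bhlhe41, a clock repressor gene, likewise (0.51 (SE 0.12)). They lost their calls under 8 and 6 alternatives.

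Genes with a negative interaction had a median of 7 exons and a median level of 57.8 CPM, those with a positive one 6 exons and 15.6 CPM, and all tested genes 9 exons and 22.6 CPM. Median exon length was 4420 bp, 4700 bp and 4380 bp in the same order. Across 5 bins of exon length, the positive share was lowest in the shortest bin, at 0.84%. It was 1.93% or more in every other bin. The negative share ran from 3.62% to 5.07%. The median interaction was -0.08 in the shortest bin and -0.02 to 0.0009 in the others. The part of the length slopes of the libraries in these differences was not tested. With the tested genes split by mean level into 5 bins of equal size, the share with a negative interaction was 1.17% in the lowest and 9.20% in the highest, while the positive share was highest, at 4.22%, in the next bin up from the lowest. Precision also grows with level, and its part in this pattern was not tested.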
